A study of Mus musculus with 24 samples.

Results

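The T-cell receptor genes of B-cell progenitors are described here through their open chromatin. The regions are all peaks of accessible chromatin that lie in the mm10 windows chr14:52427967-54224198 (Tcra with Tcrd nested inside it), chr6:40891296-41558371 (Tcrb) and chr13:19178042-19352343 (Tcrg). Overlapping entries of each library's deposited peak list were merged, and overlapping peaks of the 24 libraries were joined into regions. The windows overlap 226 of the 159336 regions of the series, 143 in Tcra/Tcrd, 61 in Tcrb and 22 in Tcrg. At a window edge, a region can include peaks of single libraries that lie just outside the window. ATAC-seq, which uses a transposase to cut DNA where chromatin is open, was run on bone marrow cells of mice sorted as pre-pro-B, pro-B or small pre-B cells. WT and Mki67-/- mice gave 4 libraries each at each of the 3 stages, 6 groups in all. Mki67-/- mice lack functional Mki67, the gene of the proliferation marker Ki-67. The strain, age, sorting markers and design of the Mki67 allele are not given in the sources used here. Whether the libraries of a group stem from different mice is not stated in the labels. All p-values rest on the spread between libraries, which may be technical.

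T-cell receptor genes, like antibody genes, are assembled by the Rag recombinase, which joins variable (V), in some loci diversity (D), and joining (J) segments beside a constant (C) gene. In the thymus Tcrb, Tcrg and Tcrd rearrange before Tcra, and each locus is opened by its own enhancer and by promoters beside its V and D segments. B-cell progenitors carry the same recombinase while they assemble the antibody heavy chain (Igh) and then a light chain, and their T-cell receptor loci ordinarily stay largely unrearranged. The Trdv2-2 segment lies beside 1 annotated start of Gm30392, a long noncoding RNA gene inside Tcra/Tcrd. A peak at chr14:53960631-53961918 covered the segment and this start and was present in 8 of 8 pre-pro-B lists and in 0 of 16 later lists. Of the promoter sequences that the RefSeq table gives inside the 3 windows, 1 for each gene it covers, that of Gm30392 alone overlapped a peak in any list. Its 250 bases before the annotated start are shown because it is the 1 promoter sequence of that table under a peak in the loci, and that peak is absent from pro-B cells onward.

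The window is chr14:53961653-53961902 of GRCm38.p6, minus strand, from RefSeq, printed 5′ to 3′ in the direction of transcription. Capitals mark matches to the E-box CANNTG, the letters bound by E proteins, and to the Ets motif GGAAG on either strand.
Gm30392: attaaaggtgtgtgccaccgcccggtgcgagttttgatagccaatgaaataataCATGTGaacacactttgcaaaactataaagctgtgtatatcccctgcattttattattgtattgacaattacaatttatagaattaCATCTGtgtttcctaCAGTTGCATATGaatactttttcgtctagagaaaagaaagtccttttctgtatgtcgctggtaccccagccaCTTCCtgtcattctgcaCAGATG
The window held 5 E-boxes, 2 of them side by side without overlap, and 1 Ets match. An E-box is in 66.2% of the 32851 RefSeq promoter windows of the same length and an Ets match in 64.1%. The letters CACAGTG of the recombination signal heptamer (5.52% of promoters), TGTGGT of Runx (14%), CTTTGA of Tcf/Lef (13.8%) and GATAA of Gata (22.6%) were not in this window on either strand. A match is a run of letters and not a measured site.

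The deposited lists held 54387 to 88946 merged peaks. The median length was 86116 for pre-pro-B lists, 74609 for pro-B lists and 67262 for those of small pre-B cells. A background coverage recovered from the deposited fold enrichment and p-value of peak summits, which stands in for depth, lay between 1.86 and 5.3 in the libraries. Its group means ranged from 2.58 in Mki67-/- small pre-B to 4.29 in WT pre-pro-B libraries. Stages were compared on the 40000 strongest peaks per library, ranked by -log10 q, so that lists were equally long. Genotypes were compared on the deposited lists. The lists of 3 libraries stood apart in length from their groups: pre-pro-B Mki67-/- replicate 4 (67920 peaks), and the first replicates of small pre-B cells (85621 in WT, 54387 in Mki67-/-). Results were repeated without these 3.

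Open chromatin in Tcra/Tcrd fell at both steps of B-cell development, that in Tcrg fell at the first step, and that in Tcrb fell at the second. In the deposited lists, Tcra/Tcrd held 92, 81, 95 and 99 peaks in the WT pre-pro-B libraries and 83, 100, 88 and 61 in the Mki67-/- ones. Pro-B libraries held 56, 47, 38 and 33 peaks there in WT and 55, 43, 50 and 44 in Mki67-/-. Small pre-B libraries held 23, 13, 12 and 16 in WT and 18, 34, 22 and 31 in Mki67-/-. The 3 stages did not overlap in Tcra/Tcrd except that the highest small pre-B library, with 34 peaks, exceeded the lowest pro-B library, with 33. Of the 40000 strongest peaks, a mean of 33.3 ± 3.85 (SD, n = 8) lay in Tcra/Tcrd in pre-pro-B libraries. In pro-B libraries it was 15.9 ± 2.03 and in small pre-B libraries 6.38 ± 1.92, with no overlap between stages. Both differences passed a two-sided exact permutation test with stage permuted within genotype. The Benjamini-Hochberg adjusted p over all genes and loci was 0.00164 for the first step and 0.00467 for the second. With the 20000 strongest peaks the second step lost its call in Tcra/Tcrd (adjusted p = 0.193, exact permutation test). The unadjusted p of 0.000408 is the smallest that 8 against 8 libraries can give. Across that table of genes, each taken with 10 kb on both sides, and the 3 loci, 45.9% of 16221 entries were called at the first step and 23.3% of 15747 at the second. Lower without overlap at the later stage, as Tcra/Tcrd was, were 11.3% of entries at the first step and 3.7% at the second. In sorted populations, fewer cells with an open region and less opening per cell cannot be told apart.

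**Figure D1:**
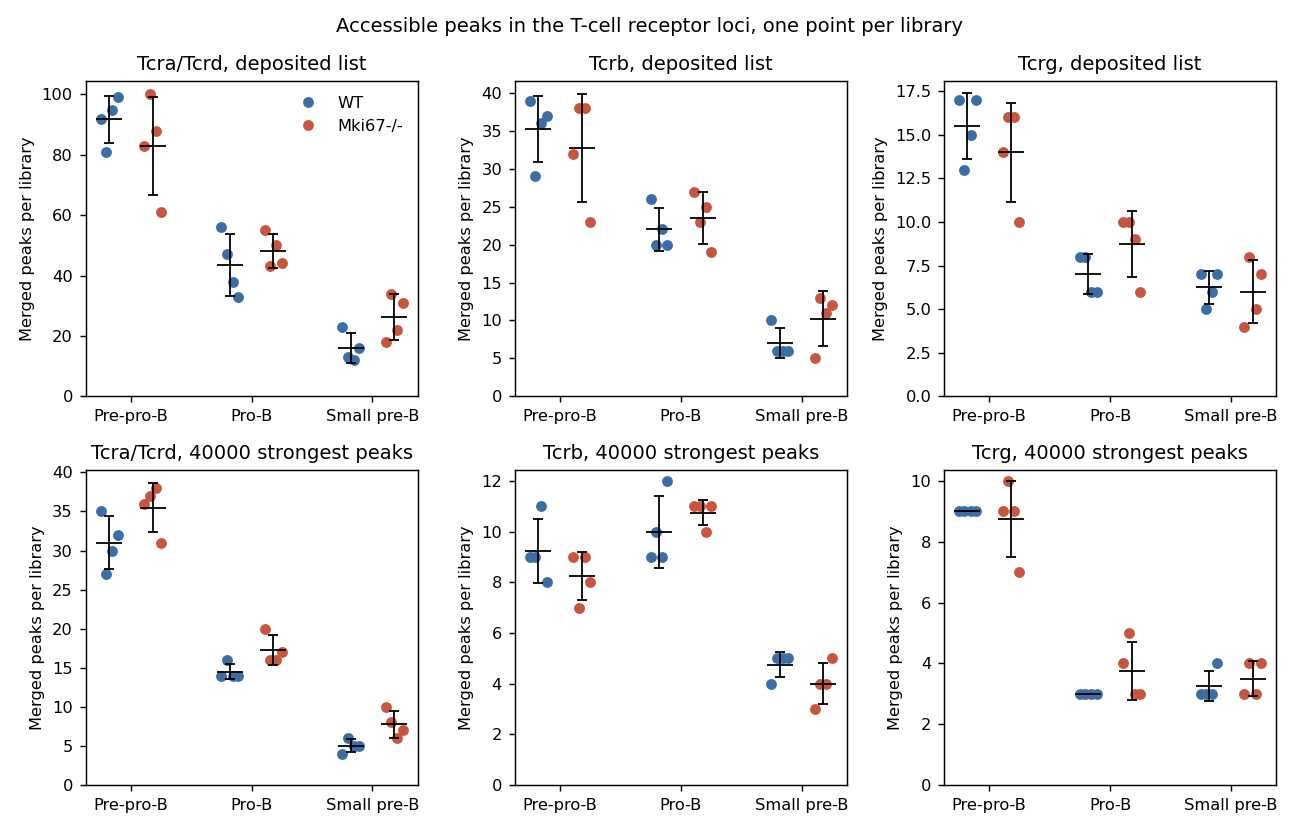
Merged peaks per library (y axis, from 0) in Tcra/Tcrd, Tcrb and Tcrg at each stage (x axis), in the deposited lists (top row) and among the 40000 strongest peaks (bottom row). Points are libraries, blue for WT and red for Mki67-/-, and black bars give the mean and SD of 4 libraries. Tcra/Tcrd falls from a mean of 87.4 deposited peaks in pre-pro-B to 21.1 in small pre-B. Tcrg among the strongest peaks stays at a mean of 3.38 from pro-B to small pre-B, counting only peaks that reach into the window.

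In Tcrb the WT pre-pro-B libraries held 39, 29, 36 and 37 deposited peaks and the Mki67-/- ones 32, 38, 38 and 23. Pro-B libraries held 26, 20, 22 and 20 in WT and 27, 23, 25 and 19 in Mki67-/-. Small pre-B libraries held 10, 6, 6 and 6 in WT and 5, 13, 11 and 12 in Mki67-/-, below every library of the earlier stages. Of the strongest peaks, 8.75 ± 1.16 (SD, n = 8) lay in Tcrb in pre-pro-B libraries, 10.4 ± 1.06 in pro-B libraries and 4.38 ± 0.744 in those of small pre-B cells. The fall at the second step passed the same exact permutation test (adjusted p = 0.00467), and pro-B and small pre-B libraries did not overlap. It lost its call with the 20000 strongest peaks (adjusted p = 0.889, exact permutation test). The first step did not pass (adjusted p = 0.0615, exact permutation test), and its direction depended on the list. In the deposited lists, whose lengths differ, the mean went from 34.0 to 22.8 peaks (adjusted p = 0.0065, exact permutation test). Of the 3 libraries of unusual length, this step holds Mki67-/- pre-pro-B replicate 4 alone. Without it the step was a rise of 1.58 peaks that passed (adjusted p = 0.0447, exact permutation test). It also passed without WT pre-pro-B replicate 3 (0.0110), Mki67-/- pre-pro-B replicate 1 (0.0422), 2 (0.0455) or 3 (0.0419), WT pro-B replicate 1 (0.0320) or 3 (0.0323), or Mki67-/- pro-B replicate 3 (0.0413), each an adjusted p by exact permutation test.

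The Tcrg window is the smallest of the 3. Deposited pre-pro-B lists held 17, 13, 15 and 17 Tcrg peaks (WT) and 14, 16, 16 and 10 (Mki67-/-). Pro-B lists held 8, 8, 6 and 6 (WT) and 10, 10, 9 and 6 (Mki67-/-). Lists of small pre-B cells held 7, 5, 6 and 7 (WT) and 4, 8, 5 and 7 (Mki67-/-). Pro-B and small pre-B libraries overlapped in Tcrg, and pre-pro-B libraries touched pro-B ones at 10 peaks. Among the strongest peaks the mean was 8.88 ± 0.835 (SD, n = 8) in pre-pro-B and 3.38 in both later stages (SD 0.744 and 0.518). The first step passed (adjusted p = 0.00164, exact permutation test), though not with the 20000 strongest peaks (adjusted p = 0.0581, exact permutation test). The second did not pass (exact permutation p = 1, difference 0). Peaks at Trgv7 that ended before the first base of the window are not in these counts. Counted by region, which takes them in, the means among the strongest peaks were 8.88, 4.38 and 4 at the 3 stages. The count by region was not tested. The strongest peaks covered 2204 bp of Tcrg in pro-B and 1719 bp in small pre-B cells, a fall in covered length that passed where the number of peaks did not (adjusted p = 0.00374, exact permutation test).

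The antibody loci, whose rearrangement follows the same stages, each had an order of their own. Among the 40000 strongest peaks Igh held a median of 36 peaks at the pre-pro-B and 103 at the pro-B stage. In small pre-B libraries its genotypes did not overlap, with a mean of 28 peaks (26 to 31) in WT and 48.3 (44 to 54) in Mki67-/-. The kappa light chain locus Igk held a median of 12, 26.5 and 156 peaks at the 3 stages in order. The lambda light chain locus Igl held 7, 5 and 12.5, so it was lower in pro-B than in pre-pro-B libraries, as Tcra/Tcrd and Tcrg were. The difference between antibody and T-cell receptor loci was not tested.

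By presence in the deposited lists, 184 of the 226 regions had a peak in at least 1 pre-pro-B library, 113 in at least 1 pro-B library and 72 in at least 1 small pre-B library. These are 81.4%, 50% and 31.9% of the regions, beside 66%, 55.2% and 60.5% of all regions of the series. Regions found in pre-pro-B lists alone made up 44.7% of the 226 (25.8% of all regions), in pro-B lists alone 11.5% (8.74%) and in small pre-B lists alone 4.42% (15.4%). All 8 pre-pro-B lists and none of the 16 later lists held 27 regions (11.9%, against 6.85% of all regions). A peak was in all 24 lists for 13 regions (5.75%, against 16.8% of all regions). No region of the 3 loci was in all 8 small pre-B lists and absent from all earlier ones (0.537% of all regions). These shares are descriptions and were not tested.

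**Figure D2:**
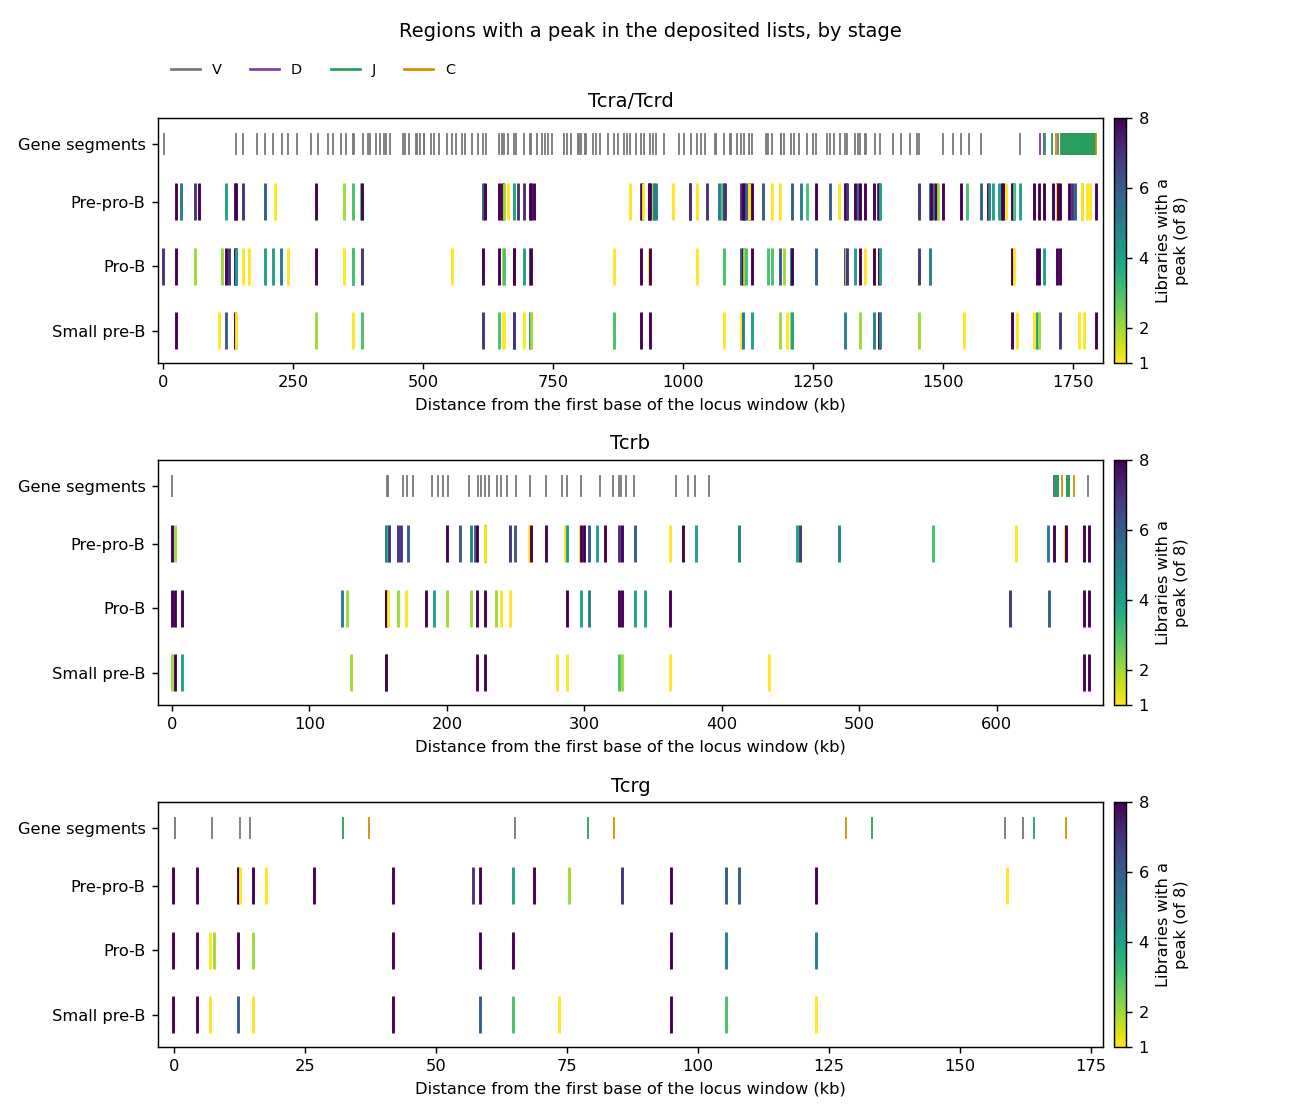
Regions of the 3 loci along the distance from the first base of each window (x axis, kb), with 1 row per stage and the annotated V, D, J and C segments on top. Each tick is a region, coloured by how many of the 8 libraries of the stage (both genotypes) have a deposited peak there. Pre-pro-B rows carry the most ticks, and the dark ticks that run through all 3 rows are regions with a peak in all 24 lists.

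Region by region, 48 of the 226 could be tested at the first step, having a peak among the 40000 strongest in at least 4 and at most 12 of 16 libraries. Of these, 28 fell and 10 rose in pro-B cells (79.2% called). Genome-wide 83.5% of 32102 regions were called, 44.1% lower and 39.4% higher. At the second step 16 could be tested, of which 15 fell and 0 rose in small pre-B cells (15 had an unadjusted p under 0.05, all of them falls). Genome-wide 70% of 19217 regions were called, 39.6% lower and 30.4% higher. The filter asks for a peak in some libraries and none in others, so the share called among tested regions says little about the loci. With the deposited lists 124 regions could be tested at the first step, and 16 rose and 70 fell (78.2% of regions called genome-wide). At the second step 1 of 56 rose and 22 fell (49% called genome-wide).

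The Trav array is a run of 130 V segments, 16 of them annotated pseudogenes, and some can be used by Tcrd as well. The number of segments with a peak fell from stage to stage in the medians. Within 500 bp of a Trav segment, deposited lists had a peak at a median of 31 segments in pre-pro-B (18 to 34 in the 8 libraries), 23.5 in pro-B (17 to 31) and 8 in small pre-B (4 to 18). With the 40000 strongest peaks the means were 12.9 ± 1.96 (SD, n = 8), 6.25 ± 1.16 and 1.88 ± 1.96 segments. Among the 20 Tcra/Tcrd regions that fell at the first step, peaks over Trav13-4-dv7 (chr14:53757195-53758153), Trav3-4 (chr14:53776780-53777932) and near Trav15d-3 (chr14:53080505-53081109) went from 8 of 8 pre-pro-B libraries to 0 of 8 pro-B libraries in the strongest lists (adjusted p = 0.000825 each, exact permutation test). In the deposited lists these 3 were still present in 4, 1 and 2 pro-B libraries. Their summits in pre-pro-B cells stood at a median fold enrichment over local background of 17.8, 13.1 and 14.1, the authors' own values.

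A few V segments went the other way. A peak over Trav9n-1 (chr14:53101984-53102407) was in 0 of 8 pre-pro-B lists, 8 of 8 pro-B lists and 7 of 8 small pre-B lists, and its fold enrichment in pro-B libraries was 29.8 to 34.8. It rose at the first step (adjusted p = 0.000825, exact permutation test). A neighbouring peak at chr14:53101391-53101672 and 1 over Trav13-2 (chr14:53634393-53634917) rose as well. These 2 were chosen after their values were seen. Peaks over Trav13d-4 (chr14:53072514-53073608) and Trav13-5 (chr14:53795014-53796067) and near Trav6d-3 (chr14:52720426-52721002) were among the strongest in all 8 pro-B libraries. In small pre-B libraries they were among the strongest in 0, 1 and 0, and in 3, 5 and 2 of the 8 deposited lists (adjusted p = 0.00175, 0.00538 and 0.00175, exact permutation test).

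The Trav array contains duplicated blocks of near-identical segments, which the gene names mark with d and n. Reads of such copies may not be assigned to 1 place, so values at single d and n segments are uncertain. A deposited peak lay within 500 bp of a median of 5, 4 and 1 of the 40 d segments in the 3 stages, 7, 6 and 4.5 of the 34 n segments, and 18.5, 14 and 2.5 of the other 56. The first Trav segment, Trav1, had a peak in 0 pre-pro-B, 7 pro-B and 0 small pre-B lists. Trav2 had a peak in 8, 8 and 1 lists, and Trav21-dv12, the last before the first Trdv segment, in none.

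The Tcrd segments lie between the Trav array and the J alpha array, and their peaks were most frequent in pre-pro-B cells. Trdv2-2 had a peak in 8 pre-pro-B, 0 pro-B and 0 small pre-B lists, Trdv3 in 6, 0 and 0, and Trdv4 in 4, 0 and 0. Trdv1 had a peak in 7, 7 and 2 lists, while Trdv2-1 and Trdv5 had none. Of the D segments, Trdd2 had a peak in 8, 4 and 0 lists and Trdd1 in none. The region over Trdd2 was chr14:54121405-54122498. The joining segments Trdj1 and Trdj2 had no peak within 500 bp in any list. The constant gene Trdc had a peak within 500 bp in 8, 8 and 0 lists, 242 bp from the gene at chr14:54146350-54146996. This peak fell at the second step from 7 to 0 of 8 strongest lists (adjusted p = 0.00538, exact permutation test).

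The lncRNA gene Gm30275 runs across the Tcrd D segments. A peak at chr14:54110798-54111643 inside it was among the strongest in 8, 8 and 0 libraries of the 3 stages. The peak beside it at chr14:54108657-54109181 was in 0, 8 and 0 (adjusted p = 0.00175 for each at the second step, exact permutation test). The second of these was absent from all 8 pre-pro-B deposited lists too, so the flank of the D segments gained a peak in pro-B cells while Trdd2 was losing its own. Inside the other lncRNA gene, Gm30392, a peak at chr14:53904295-53905180 went from 8 of 8 pre-pro-B lists to none at later stages, deposited or strongest.

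The J alpha array and Trac are at the far end of the locus and are joined last in T cells. A median of 4 of 60 Traj segments (1 to 6) had a deposited peak within 500 bp in pre-pro-B libraries, none in any pro-B library, and 0 to 2 in small pre-B libraries. Traj49 had a peak in 8 pre-pro-B lists, Traj42 in 7, Traj37 in 6, Traj41 in 5 and Traj48 in 3, all in 0 pro-B and 0 small pre-B lists. Traj61 and Traj1, the ends of the array, had none. Within Trac, which encodes the alpha constant region, a peak at chr14:54222224-54222782 was in 8 of 8 pre-pro-B, 0 of 8 pro-B and 8 of 8 small pre-B lists. Of all regions, 0.36% had this pattern. The Trac peak was weak, with a fold enrichment of 2.72 to 3.75 in pre-pro-B and 2.29 to 4.23 in small pre-B libraries. It entered the 40000 strongest in 1 library of each, so it could not be tested there.

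**Figure D3:**
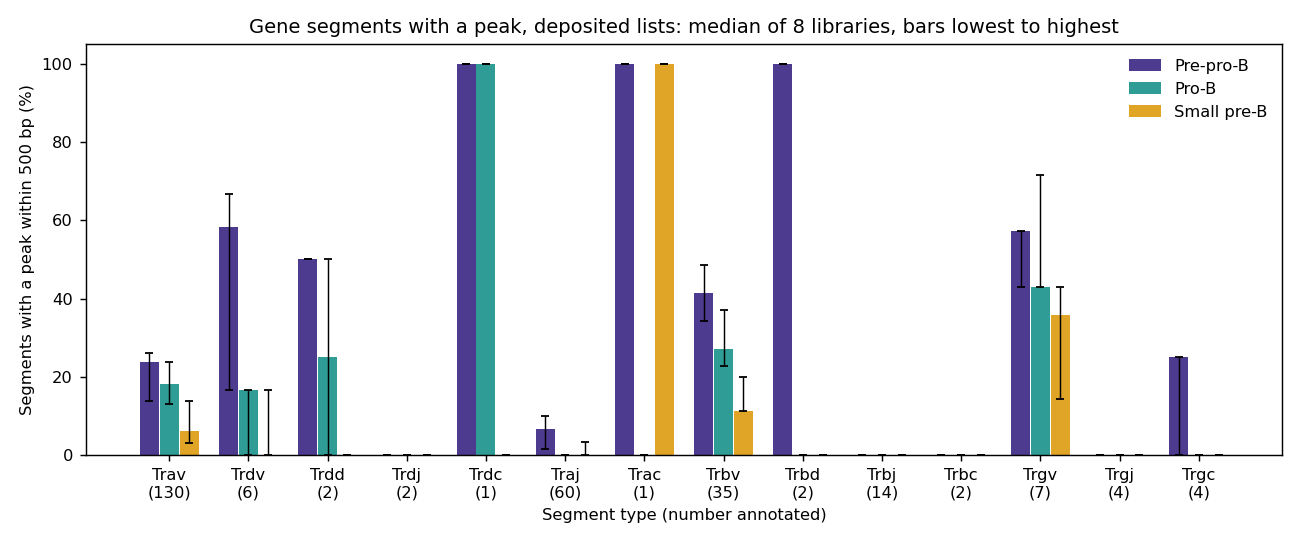
Share of annotated segments of each type with a deposited peak within 500 bp (y axis, %), by segment type (x axis, number of segments, pseudogenes included, in brackets). Bars are the median of the 8 libraries of a stage and whiskers the lowest and highest library. Trav segments go from a median of 31 of 130 in pre-pro-B to 8 in small pre-B, Trbd has peaks in pre-pro-B alone, and Trdj, Trbj, Trbc and Trgj are at 0.

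In Tcrb, a median of 14.5 of 35 Trbv segments had a deposited peak within 500 bp in pre-pro-B libraries (12 to 17), 9.5 in pro-B (8 to 13) and 4 in small pre-B (4 to 7). With the strongest peaks the means were 5.50 ± 1.31 (SD, n = 8), 5.75 ± 0.886 and 3.13 ± 0.354. Peaks over Trbv20 (chr6:41188720-41189604) and Trbv24 (chr6:41218106-41219129) were among the strongest in 8 of 8 pre-pro-B and 0 of 8 pro-B libraries. The peak over Trbv23 (chr6:41215669-41216753), next to Trbv24, was in 0, 8 and 0 of 8 strongest lists at the 3 stages. So was the peak over Gm2719 (chr6:41253077-41253694) and 1 in the vicinity of Trbv7 (chr6:41075769-41076079), which no deposited list of another stage held. Each of these changes had an adjusted p of 0.000825 at the first step and, for the 3 that were among the strongest in pro-B libraries, 0.00175 at the second (exact permutation test). In the deposited lists the Trbv20 peak was present in 8, 4 and 0 of 8 libraries, that over Trbv24 in 8, 8 and 2, that over Trbv23 in 7, 8 and 3 and that over Gm2719 in 1, 8 and 1. The peaks over Trbv23 and Trbv24 were thus present at both stages, and what changed at the first step was their rank relative to the limit of 40000. The authors' fold enrichment at Trbv23 was 3.15 to 4.35 in pre-pro-B and 14.3 to 17.7 in pro-B lists, and at Trbv24 it was 9.22 to 11.6 and 3.71 to 6.49. Fold enrichment could also differ between these stages at regions with a peak in all 24 lists. Its medians were 15.3 and 23.2 over Olfr1509, and 14 and 13.2 near Trav17. Of the 13 such regions in the loci, all but that near Trav17 had a higher median in pro-B than in pre-pro-B lists. Differences in fold enrichment between lists were not tested.

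At the ends of the Trbv array, peaks were gained at some segments and lost at others. Trbv31, which lies beyond the constant genes, had a peak within 500 bp (chr6:41558318-41558666) in all 24 deposited lists. It was among the strongest in 0, 8 and 8 of 8 libraries, a rise at the first step (adjusted p = 0.000825, exact permutation test). Trbv2 had a peak in 5, 8 and 8 deposited lists and 0, 7 and 8 strongest ones. Its fold enrichment was 3.19 to 5.92 in the pre-pro-B libraries that had it and 14.7 to 26.8 in small pre-B libraries. Trbv1, the first segment, had a peak among the strongest in 8, 8 and 0 libraries (chr6:40890666-40892245), a fall at the second step (adjusted p = 0.00175, exact permutation test). A peak over Prss58 (chr6:40898411-40898744) was among the strongest in 0, 6 and 0 libraries and fell at that step too (adjusted p = 0.0198, exact permutation test). Trbv30 had no peak in any list.

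The Tcrb D, J and C clusters carried peaks at their D segments, and in pre-pro-B cells alone. Trbd1 and Trbd2 each had a peak within 500 bp in 8 of 8 pre-pro-B lists and 0 of 16 later ones. That over Trbd1 (chr6:41532246-41533335) was among the strongest in 6, 0 and 0 libraries. None of the 14 Trbj segments and neither Trbc1 nor Trbc2 had a peak within 500 bp in any list. The known Tcrb enhancer lies between Trbc2 and Trbv31, and a region in that interval at chr6:41554121-41555258 had a peak in all 24 lists. In pre-pro-B libraries this peak was in the top 1.35% to 5.43% of its list by -log10 q, in pro-B libraries in the top 6.75% to 15.1%, and in small pre-B libraries in the top 18.6% to 40.8%. The lists differ in length and depth, so these positions are given with no test.

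In Tcrg the segments form 4 clusters of V, J and C. Trgv7, at the start of the window, had a peak in all 24 deposited and all 24 strongest lists. Trgv6 had a deposited peak in 8, 8 and 6 lists, Trgv5 in 8, 2 and 1, and Trgv3 in 4, 8 and 3. Trgv4 had a peak in 0, 2 and 1 lists, Trgv2 in 1, 0 and 0, and Trgv1 in none. Trgj1, Trgj2, Trgj3 and Trgj4 had no peak within 500 bp in any list. Of the constant genes, Trgc3 had a peak in 7, 0 and 0 lists, and Trgc1, Trgc2 and Trgc4 had none.

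The Tcrg regions that fell at the first step numbered 4. The peak near Trgv3 (chr13:19246412-19247155) was in 8 of 8 pre-pro-B lists with a fold enrichment of 15.5 to 21.9 and in none of the 16 later lists. Those near Trgc2 (chr13:19300148-19301258) and over the lncRNA gene Gm31887 (chr13:19192740-19193655) went from 8 to 0 of 8 strongest lists (adjusted p = 0.000825 for all 3, exact permutation test). The one near Trgc2 was still in 5 pro-B and 1 small pre-B deposited lists. The one over Gm31887 was in 2 and 1, and it is also the peak counted within 500 bp of Trgv5. A peak near Trgj1 (chr13:19204424-19205256) went from 7 to 0 (adjusted p = 0.00328, exact permutation test). No Tcrg region could be tested at the second step.

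Of the 13 regions with a peak in all 24 lists, 5 were in Tcra/Tcrd, 4 in Tcrb and 4 in Tcrg. In Tcra/Tcrd they were over the olfactory receptor gene Olfr1509 (chr14:52450638-52451714), near Trav2 (chr14:52565554-52566192), over Trav13n-4 (chr14:53363792-53364537), near Trav17 (chr14:53803827-53804730) and 7103 bp from Gm30275 (chr14:54059837-54060334). In Tcrb they were beside Trbv12-1 (chr6:41112933-41113547), over Trbv12-2 (chr6:41118243-41119128) and the 2 peaks at and before Trbv31 given above. In Tcrg they were at Trgv7 (chr13:19177483-19178140), in Gm31887 (chr13:19181961-19182881), 2530 bp from Trgc1 (chr13:19219148-19220655) and 8897 bp from Trgc3 (chr13:19272294-19273442). These last 2 follow the constant genes of their clusters. The peak beyond Trgc1 had a fold enrichment of 17 to 21 in pre-pro-B, 18.4 to 21.1 in pro-B and 15.6 to 19.4 in small pre-B libraries. By -log10 q it was in the top 2.27% to 6.91%, 12.5% to 19.3% and 17.1% to 28.4% of the lists of these stages. Its stretch shared by all 24 peaks, 755 bp, was longer than that of the other 12, which were 149 to 441 bp.

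Genes of other kinds sit inside the windows. With 10 kb on both sides and the strongest peaks, Olfr1507 went from a mean of 1 peak in pre-pro-B to 0 in pro-B libraries (adjusted p = 0.00164), through the peak at chr14:52495199-52496283. Prss2, a pancreatic trypsin gene in Tcrb, went from 0.75 to 0 (adjusted p = 0.0237). Prss58, a serine protease gene beside Trbv1, rose from 1 to 1.75 (adjusted p = 0.0237) and then fell to 0.375 (adjusted p = 0.0129), all by exact permutation test. The 10 kb around Prss2 take in the peak over Trbd1 (6, 0 and 0 strongest lists). From Trbv30 to the end of Prss2 there was no strongest peak at any stage. The 10 kb around Prss58 take in the peak over Trbv1 (8, 8 and 0 strongest lists), so neither count is of the gene alone. Olfr1509 held 1 peak at every stage. Olfr1508, Gm36448, Try4, Try5, Try10 and Prss3 had no peak among the strongest, and a deposited median of 0 to 1.5 in every stage.

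The nearest protein-coding genes outside the windows were counted among the 40000 strongest peaks, with 10 kb on both sides. Beyond Trac, Dad1, an oligosaccharyltransferase subunit, rose from a mean of 5 to 6 peaks at the first step (adjusted p = 0.00587) and Abhd4 held 2, 2 and 1.88. The olfactory genes Olfr1511 and Olfr1510 on the other side had none among the strongest, and medians of 3, 1 and 0 and of 0, 1.5 and 0 deposited peaks at the 3 stages. Beside Tcrb, Mgam fell from 1.5 to 0 and Trpv6 from 1 to 0 (adjusted p = 0.00164 each), while Moxd2 and Ephb6 passed at neither step. Beside Tcrg, Stard3nl fell from 2.88 to 1.63 (adjusted p = 0.00436) and Epdr1 fell from 1 to 0 at the second step (adjusted p = 0.00467). Vps41 and Amph passed at neither. These p-values are from exact permutation tests on 8 against 8 libraries.

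Loss of Mki67 gave no call in the loci. Across stages and in the deposited lists, the WT and Mki67-/- means were 50.4 and 52.4 peaks for Tcra/Tcrd, 21.4 and 22.2 for Tcrb, and 9.58 in both genotypes for Tcrg (adjusted p = 1 for each, exact permutation test with genotype permuted within stage). Over all genes and loci 0 of 17601 entries were called (0%), and 893 (5.07%) had an unadjusted p under 0.05. Within stages, the Mki67-/- minus WT difference in Tcra/Tcrd was -8.75 peaks at the pre-pro-B stage (p = 0.429), 4.50 among pro-B libraries (p = 0.486) and 10.3 among those of small pre-B cells (p = 0.0857), by exact permutation test. With 4 against 4 libraries such a test cannot give a p below 0.0286. The difference between these genotype effects was also tested: that in small pre-B exceeded that in pre-pro-B by 19 peaks (p = 0.0694, adjusted p = 1, exact permutation test).

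In small pre-B cells the 4 Mki67-/- libraries had a larger share of their peaks in Tcra/Tcrd than the 4 WT ones. Per 1000 merged peaks of the library, a scale chosen after the data were seen, the WT libraries were at 0.189 to 0.269 and the Mki67-/- libraries at 0.331 to 0.477, with no overlap. This had p = 0.0286, the smallest that 4 against 4 libraries can give, and an adjusted p of 0.592 by exact permutation test over 16345 genes and loci. Higher in Mki67-/- without overlap on that scale were 2.58% of these entries, and 2.25% were lower. Igh also separated the genotypes on that scale in small pre-B cells, at 0.969 to 1.14 in WT and 1.49 to 2.48 in Mki67-/-. It did so in pro-B cells too, at 2.56 to 2.82 in WT and 2.96 to 3.04 in Mki67-/-. In numbers of peaks the genotypes overlapped, since WT replicate 1 held 23 and Mki67-/- replicates 1 and 3 held 18 and 22. Without the 3 libraries of unusual length the difference in small pre-B was 15.3 peaks. The Mki67-/- small pre-B libraries also had a lower mean background coverage than WT (2.58 against 3.12), whose part in the result was not tested. Among the 20000 strongest peaks the pro-B genotypes did not overlap in Tcra/Tcrd either, at 2, 1, 1 and 2 peaks in WT and 7, 6, 3 and 4 in Mki67-/-. This had p = 0.0286 and an adjusted p of 1 by exact permutation test over 13199 genes and loci, of which 0.606% were higher and 0.849% lower in Mki67-/- without overlap.

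The strongest lists gave another picture of Tcra/Tcrd, with a mean over stages of 16.8 peaks in WT libraries and 20.2 where Mki67 was lost. The difference of 3.33 had p = 0.00162 by exact permutation test, and an adjusted p of 0.607 over 16352 genes and loci. Of those, 2.2% were higher in Mki67-/- at an unadjusted p under 0.05. By stage the WT mean was 31, 14.5 and 5 peaks, and the Mki67-/- mean 35.5, 17.3 and 7.75. The genotypes overlapped in pre-pro-B and shared 1 value in the later stages, 16 peaks among pro-B and 6 among small pre-B libraries. In the deposited lists the direction in pre-pro-B was the opposite, 91.8 against 83.0, so the direction there depends on the list.

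**Figure D4:**
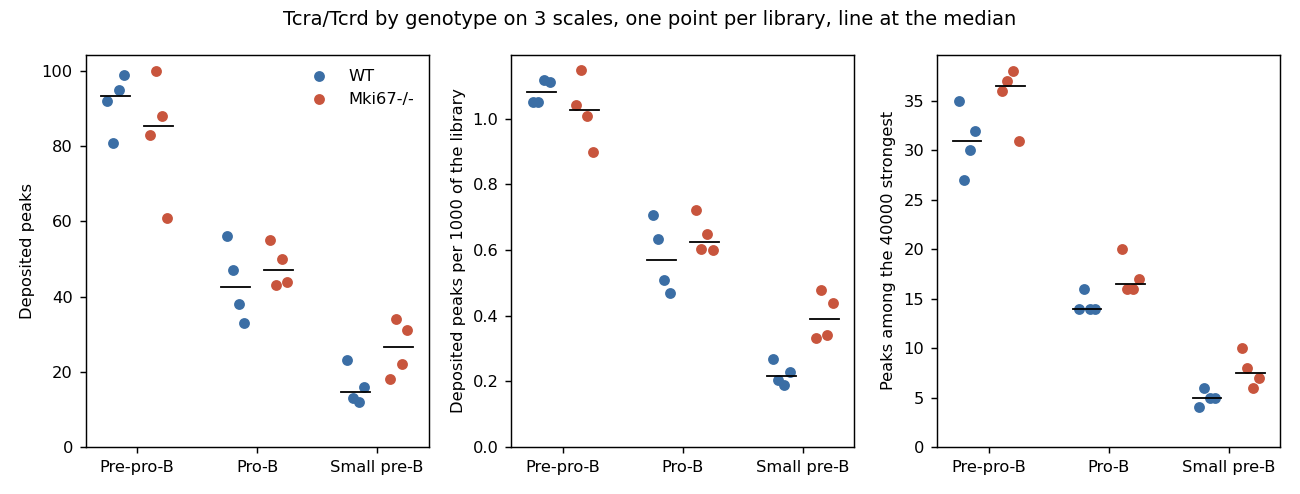
Tcra/Tcrd by stage (x axis) and genotype on 3 scales (y axes, from 0): deposited peaks, deposited peaks per 1000 merged peaks of the library, and peaks among the 40000 strongest. Points are libraries, blue for WT and red for Mki67-/-, and lines are medians of 4. On the middle scale the small pre-B genotypes do not overlap (0.189 to 0.269 against 0.331 to 0.477), and on the other scales they overlap or share a value.

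At the level of single regions, 145 of the 226 could be tested for genotype across stages and 0 were called by the exact permutation test in the deposited lists, with 3 at an unadjusted p under 0.05. Genome-wide 0 of 73251 regions were called (0%), and 2.7% had an unadjusted p under 0.05. The 3 regions split the genotypes within 1 stage. The peak at chr14:54108657-54109181 in Gm30275 was in 4 of 4 Mki67-/- and 0 of 4 WT small pre-B lists. In those Mki67-/- lists its fold enrichment was 4.2, 6.33, 5.83 and 5.91, beside 17.4 to 19.8 in Mki67-/- and 14.4 to 17.8 in WT pro-B lists. The peak over Trav15-1-dv6-1 (chr14:53559415-53560720) was in all 16 earlier lists and likewise in 4 of 4 Mki67-/- and 0 of 4 WT small pre-B lists, where its fold enrichment was 8.75, 9.76, 5.27 and 5.18. A peak near Trav13-2 (chr14:53635959-53636196) was in 4 of 4 Mki67-/- pro-B lists, at 4.43 to 5.43, and in no other list. Each had p = 0.0286 and an adjusted p of 1 (exact permutation test). Of regions that varied within small pre-B, 0.825% were in all Mki67-/- and no WT list, and 0.598% in all WT and no Mki67-/- list. Of those that varied within pro-B, the shares were 0.67% and 0.718%.

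In the strongest lists, 2 further regions split the genotypes this way. Trav9n-1 (chr14:53101984-53102407) was among the 40000 strongest in 4 of 4 Mki67-/- and 0 of 4 WT small pre-B libraries. It was present in 3 of the 4 WT deposited lists, with a fold enrichment of 4.42 to 5.10 against 12.6 to 23 in Mki67-/-. A region near Trav6n-6 (chr14:53132449-53133418) was among the strongest in 4 of 4 Mki67-/- and 0 of 4 WT pre-pro-B libraries, while all 8 deposited lists held it at ranks 37989 to 48474, on both sides of the limit of 40000. Of regions that varied in the strongest lists, 0.242% in pre-pro-B and 2.41% in small pre-B were in all 4 Mki67-/- and no WT list. All 4 WT and no Mki67-/- list held 84 of the 19388 such regions in pre-pro-B, against 47 the other way. In small pre-B the numbers were 172 and 536 of 22224. In Tcrb the lowest genotype p was 0.0714 (adjusted p = 1, exact permutation test), at the Trbv23 peak, which was in 0 of 4 WT and 3 of 4 Mki67-/- small pre-B lists. The next were peaks near Trbv2 (chr6:41046644-41046920) and Trbv20 (chr6:41194554-41194825), each at an exact permutation p of 0.296. In Tcrg the lowest was 0.329 (adjusted p = 1, exact permutation test), at Trgv3 (chr13:19242608-19242899), and the next 0.571, at the peak near Trgc2. No region of Tcrb or Tcrg separated the genotypes in either list, and no region in the loci was in all WT and no Mki67-/- list of a stage.

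Genes that build, signal from, recombine or regulate the T-cell receptor were counted with 10 kb on both sides. Of 43 such genes, 42 could be tested at the first step, and 13 rose and 12 fell in pro-B cells (24.8% and 21.2% of all entries did), with a median difference of -0.0625 peaks beside 0 for all genes. Of the CD3 and pre-T alpha genes, which form the receptor complex, Cd3e fell from a mean of 1.25 peaks to 0 and Ptcra from 3.25 to 2. Cd3d, Cd3g and Cd247 did not pass. Coreceptor and signalling genes had 6 that fell and 1 that rose of 10 tested. Cd8b1, of the CD8 coreceptor, went from 6.13 to 0, and Cd5, a brake on receptor signalling, rose from 3.5 to 6.25. Of 8 recombination genes 4 rose and 1 fell. Rag2, of the recombinase, rose from 1 to 2.13, while Rag1 held 2 at every stage. Of these genes, all but Cd8b1 were chosen after their values were seen.

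Of 19 transcription factor genes, 8 rose and 3 fell. Tcf7, the gene of TCF1, rose from 2 to 7.75, Tcf12, an E protein gene, from 9 to 12.3, and Lef1, the TCF1 relative, from 5.38 to 8.38. Their adjusted p was 0.00164 each, as for Cd8b1, by exact permutation test. At the second step 38 of the 43 could be tested, and 5 rose and 5 fell (11.4% and 11.9% of all entries did). Runx1, a Runx factor gene, fell from 15.4 to 10.5 and Tcf7 from 7.75 to 4.75, while Ets1, an Ets factor gene, rose from 9.63 to 12.1 (adjusted p = 0.00467, 0.0083 and 0.00467, exact permutation test). By genotype 0 of 43 were called. At an unadjusted p under 0.05, Dntt, whose product adds nucleotides at joints, was the 1 member (p = 0.00239, adjusted p = 0.638, exact permutation test).

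The stage labels were read against markers. All 8 B-lineage genes rose at the first step, among them Ebf1 from 4.88 to 17.4 peaks. The summed number of strongest peaks at 9 T-lineage genes was 25 to 29 in pre-pro-B libraries, 9 to 12 in pro-B libraries and 7 to 10 in those of small pre-B cells. Cd3e, Cd8a and Cd8b1 were at 0 in every later library. At 8 NK and innate lymphoid genes the sum was 24 to 31, 17 to 20 and 14 to 18, and Ncr1 was at 0 in the later stages. In sum, peaks at genes of other lymphoid lineages thus fell at the first step, as those in Tcra/Tcrd and Tcrg did. Their part in the fall of the loci was not tested. Of 9 T-lineage genes 6 fell and 0 rose at the first step, and of 8 NK and innate genes 4 fell and 1 rose. At the second step 0 of 5 tested T-lineage genes were called, and of 7 tested NK and innate genes 2 fell and 0 rose. The sum over 6 myeloid genes was 9 to 11 at the first 2 stages and 8 to 11 at the last. Over 4 plasmacytoid dendritic genes it was 18 to 25, 23 to 25 and 26 to 31. Of these 4 genes, Tcf4 and Irf8 rose and Siglech and Bst2 fell at the first step, and 1 rose and 0 fell at the second. Of 5 myeloid genes tested, 1 rose and 1 fell at each step.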

How the data were processed

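Per the submitters' processing notes, Trimmomatic, MACS2, deepTools, DiffBind and DESeq2 were used with the mm10 build, without versions given. The deposited score is a whole number that equals 10 times the -log10 q. The authors' fold enrichment is a linear ratio, summit over local background, per the narrowPeak format, and the deposited -log10 p and -log10 q belong to that summit. Each library was called separately, with the lowest -log10 q at 2, so these values ranked, filtered or described peaks within a list. Fold enrichments of different lists given side by side are descriptions and were not tested.

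Overlapping or touching entries were merged per library on chromosomes 1 to 19 and X. A region had a peak with 1 bp of overlap, and a segment had one with a peak within 500 bp. Regions with a peak in at least 4 and at most n-4 libraries, and genes (RefSeq, 10 kb on both sides) with a peak in at least 4, were tested over the whole genome by two-sided exact permutation tests, with stage permuted within genotype or genotype within stage. Benjamini-Hochberg adjustment ran over each whole table, with the loci as 3 entries of the gene table and a threshold of 0.05. The lowest reachable p was 0.0286 with 4 libraries a side, 0.000408 with 8 and 5.83e-06 with 12. Tests were checked on simulated data. Segment names and positions are those of the RefSeq annotation of GRCm38.p6. Segment numbers include annotated pseudogenes, 16 of 130 Trav, 1 of 6 Trdv, 9 of 60 Traj, 13 of 35 Trbv and 1 of 14 Trbj.

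Named regions were those with a peak in all 24 lists, up to 6 per locus and step with the largest called difference, those that split the genotypes of a stage 4 to 0, and up to 3 per locus with the smallest genotype p. Every C, D and Tcrg segment and the ends of the V and J arrays were named, with pathway genes of the 4 largest called differences per step. Values of some listed genes are not reported here. The regions, lists and rules were chosen with earlier results of these data known. Alternatives were other lists and measures, other overlaps and distances, leaving out libraries, and pairing by label number. The scale of peaks per 1000 of the library was added after the data were seen. Read counts were not used here, so no counting interval is given. Python 3.11.15, NumPy 2.4.6, pandas 2.3.3, SciPy 1.17.1, numba 0.67.0 and matplotlib 3.10.9 were used.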

Additional observations from a re-analysis of the deposited data

Results flagged for a closer look

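In 5 of the 36 combinations of locus, list and group, 1 library lay farther from the other 3 than Dixon's 95% critical value allows. That value flags about 1 in 20 by chance where values are continuous. In all 5 the other 3 libraries held equal counts, so a difference of any size is flagged. The 5 can therefore not be set against that rate. In Tcrb, WT small pre-B replicate 1 held 10 deposited peaks where the others held 6, and 4 of the 40000 strongest where the others held 5. In Tcra/Tcrd, WT pro-B replicate 2 held 16 of the strongest peaks where the others held 14. In Tcrb, Mki67-/- pro-B replicate 3 held 10 where the others held 11. In Tcrg, WT small pre-B replicate 4 held 4 where the others held 3. Apart from the deposited Tcrb count and that of Tcra/Tcrd, these are differences of 1 peak.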

How the results depend on the processing

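The falls at the first step in Tcra/Tcrd and Tcrg and at the second in Tcra/Tcrd and Tcrb kept their direction under each alternative run. With the 20000 strongest peaks, Tcrg lost its call at the first step (-1.63 peaks, adjusted p = 0.0581), as did Tcra/Tcrd (-1.63, adjusted p = 0.193) and Tcrb (-0.375, adjusted p = 0.889) at the second, all by exact permutation test. The rise of Tcrb at the first step turned to -11.3 peaks in the deposited lists and -0.75 with the 20000 strongest. It turned to -2475 bp in covered length and -0.105 per 1000 peaks of the library. Without Mki67-/- pre-pro-B replicate 4, the library of unusual length in this step, it was 1.58 peaks and past the threshold. Tcrg at the second step passed in covered length (-485 bp). The cause of these changes was not tested. In the deposited lists 16 regions rose and 70 fell at the first step and 1 rose at the second; more regions can be tested there.

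Genotype differences are Mki67-/- minus WT, and each alternative below turned the sign of a difference that was not called. Across stages Tcrb came to -0.333 among the 40000 strongest peaks, -0.0833 with a -log10 q of at least 5, -1.33 with at least 10, -1.42 without merging and -310 bp in covered length. Tcra/Tcrd came to -0.583 with a -log10 q of at least 10, -3.67 without merging and -417 bp in covered length. In pre-pro-B, Tcra/Tcrd came to 4.50 among the 40000 and 0.75 among the 20000 strongest. Tcrb there came to 0.75 without the 3 libraries of unusual length, of which this stage holds Mki67-/- replicate 4 alone. In small pre-B, Tcrb came to -0.75 among the 40000 strongest. Tcrg there came to 0.25 and 1 among the 40000 and 20000 strongest, 0.75 without merging, 116 bp in covered length, 0.0016 per 1000 peaks and 0.667 without the 3 libraries.

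Mean numbers of segments with a peak moved by more than 1 SD with the list and the distance. With the deposited lists they were 29.3, 24 and 9.75 for Trav at the 3 stages, 14.6, 9.75 and 5 for Trbv and 3.63, 3.5 and 2.38 for Trgv. Within 2000 bp of the strongest peaks they were 18 and 7.5 for Trav at the first 2 stages and 8.13, 8.63 and 5.5 for Trbv. With direct overlap they were 3.88 and 1.88 for Trbv at the last 2 stages and 1.25, 0.25 and 0.375 for Trgv.

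Leaving out 1 library at a time gave -18.1 to -16.7 peaks for Tcra/Tcrd, 1.29 to 1.92 for Tcrb and -5.79 to -5.29 for Tcrg at the first step, and -9.88 to -9.04, -6.17 to -5.67 and -0.125 to 0.208 at the second. For genotype in pre-pro-B the range in Tcrb was -4.58 to 0.75, positive without Mki67-/- replicate 4. In small pre-B the range in Tcrg was -0.917 to 0.417, positive without Mki67-/- replicate 1 (0.417) or 3 (0.0833). Regions that rose and fell numbered 10 to 10 and 28 to 32 at the first step, and 0 to 0 and 14 to 16 at the second.

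The labels do not say whether equal replicate numbers pair libraries, and the correlations given next cannot settle it. Correlations of the deviations of same-numbered libraries were -0.375 to 0.133 between genotypes, -0.123 to 0.113 between pre-pro-B and pro-B and -0.156 to 0.201 between the last 2 stages. With the number as a replicate block, where 8 pairs cannot give a p under 0.00781, Tcra/Tcrd (-9.5) and Tcrb (-6) had an adjusted p of 0.0721 at the second step by exact permutation test. At the first step Tcra/Tcrd and Tcrg stayed past the threshold (0.0281), 9 regions rose and 25 fell (72.8% of all regions tested were called), and 10 fell at the second (37.9%). The depth of the libraries is known through the background coverage alone, so an absent peak is one not detected at that depth.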
